A study of Rattus norvegicus with 12 samples.

Results

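The genes described here are 10 genes of the ATF4 and amino acid stress response: Atf4, Ddit3, Trib3, Chac1, Asns, Psat1, Phgdh, Sesn2, Slc7a5 and Slc3a2. They were taken by gene symbol, in a choice made with earlier results of these data known, and matched 10 of the 19230 rows of the expression table. Psat1 was found only in a row that merges it with Cep78, so a value of that row cannot be given to 1 of the 2 genes. RNA was sequenced from Sprague-Dawley rats in 4 groups of 3 libraries. These were total lung after 4 days of SuHx from rats with the label Ahr-KO, total lung after 4 days of SuHx from wild-type (WT) rats, endothelial cells (ECs) of WT rats in normoxia, and total lung of WT rats in normoxia at day 0. SuHx combines SU5416 (Sugen), a VEGF receptor inhibitor, with hypoxia, and no group had only 1 of them. No Ahr-KO rats in normoxia were measured, so a genotype effect on the response to SuHx could not be tested. The isolation of the ECs, the deleted part of Ahr and the age and number of the animals are not given in the labels. The ECs carry the label day 4, while their column names give 0.

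ATF4 is a transcription factor whose mRNA is translated more when the initiation factor eIF2 is phosphorylated. The kinases that do so sense amino acid shortage, misfolded protein in the endoplasmic reticulum, double-stranded RNA or lack of haem, and the pathway is called the integrated stress response. Since ATF4 is controlled at translation, its mRNA does not give its activity, and its targets are read instead. Among them are the transcription factor CHOP (Ddit3), the feedback regulator Trib3, the glutathione-degrading enzyme Chac1, enzymes that make asparagine and serine, and amino acid transporters. AhR, encoded by Ahr, is a ligand-activated transcription factor, and Slc7a5 has been described as one of its targets in human cells.

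Values are a signal, an estimated read count that the authors divided by 1 factor for each library. The libraries stood for about 20000000 to 28600000 reads. Ahr mRNA was at 2279 ± 415 in lungs labelled Ahr-KO, 2270 ± 708 in WT SuHx lungs and 4206 ± 1251 in normoxia lungs (SD, n = 3 each), so its level does not tell the genotypes apart. Cyp1a1, a target of AhR, averaged 4.83 ± 0.835 in lungs labelled Ahr-KO and 69806 ± 4871 in WT SuHx lungs. The ECs carried their markers: the summed signal of 10 endothelial markers was 261127 to 318900 in ECs and 91378 to 96038 in normoxia lung. The sum of 10 alveolar and airway epithelial markers was 114220 to 264411 in ECs and 644118 to 847748 in normoxia lung, and none of these markers was at 0 in the ECs. The sum of 10 leukocyte markers was 18017 to 24824 in ECs, where Marco was at 0, and 16261 to 18284 in normoxia lung. In these bulk libraries, fewer cells of a type and less RNA per cell cannot be told apart. The summed signal of 6 erythroid markers was 3445 to 6727 in lungs labelled Ahr-KO, 4431 to 7398 in WT SuHx lungs, 75.1 to 92.4 in ECs and 695 to 1258 in normoxia lungs. 1 lung labelled Ahr-KO and 1 normoxia lung (suffix 2 in both) had the highest sums of 6 cardiac muscle markers, 23478 and 11108, against 832 to 6904 in the other 7 lungs.

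Promoter windows of all 10 genes were read from RefSeq (build GRCr8, from 250 bases before to 50 after a gene's start). They are shown for genes on which the results turn. The C/EBP-ATF composite element, the sequence that ATF4 binds together with a C/EBP partner, was searched as TGATGNAA on both strands. It was found in the windows of 2 of the 10 genes, Chac1 and Trib3, and in 3.98% of all 33469 windows. The AhR response element core was searched as TNGCGTG. It was found for 3 of the 10 genes (Psat1, Slc7a5 and Slc3a2) and in 4.89% of all windows. Slc3a2 had 2 windows, so these matches were in 3 of the 11 windows of the 10 genes, and only the matching Slc3a2 window is shown. The CRE palindrome TGACGTCA was found for 0 of the 10 genes and in 1.83% of all windows. A match is a description of the sequence, not a bound site. The stretches below lie before the start, run 5′ to 3′ on the gene's strand and have the matching letters in capitals (for Chac1 and Trib3 the match is on the opposite strand).
Chac1, chr3:126795944-126796003, plus strand: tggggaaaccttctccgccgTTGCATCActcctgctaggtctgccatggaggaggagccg
Trib3, chr3:161275534-161275574, minus strand: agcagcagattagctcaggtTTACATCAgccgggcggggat
Slc7a5, chr19:66872506-66872565, minus strand: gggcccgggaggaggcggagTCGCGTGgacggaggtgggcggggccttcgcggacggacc
Slc3a2, chr1:215048255-215048314, minus strand: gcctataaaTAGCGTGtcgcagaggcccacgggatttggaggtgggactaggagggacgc

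In WT SuHx lung, the transporter gene Slc7a5 was the only 1 of the 10 genes to pass the test against WT normoxia lung, and it was 2.00-fold higher. The log2 fold changes of the transcription factor genes Atf4 and Ddit3 were 0.28 each, and Trib3 and Asns had lower means while Chac1 and Phgdh had higher ones, without passing. The test was limma on log2(signal + 1) over all genes, and calls were made where the p adjusted by Benjamini-Hochberg was under 0.05. Of the 10 genes, 1 was called higher, 0 lower and 9 were not called, where 7.08% of the 15234 tested genes were called higher and 6.39% lower (13.5% in all). At an unadjusted p under 0.05 there were 5 of the 10, against 31.7% of all tested genes. The groups did not overlap for 6 of the 10, against 36.7% of all tested genes (17% higher and 19.7% lower). The median log2 fold change was 0.23 over the 10 genes and -0.04 over all tested genes.

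Between the SuHx lungs of both genotypes, none of the 10 genes was called by limma, and 1 had an unadjusted p under 0.05 (Slc3a2), as had 13.6% of all tested genes. This comparison asks which genes differ with the labelled genotype under the same treatment. It called 0.499% of all tested genes (0.197% higher and 0.302% lower), and the median log2 fold change was -0.07 over the 10 genes and 0.02 over all tested. The groups overlapped for all of the 10 but Slc3a2, where 21.9% of tested genes had no overlap (11.7% higher and 10.2% lower). Against WT normoxia lung, the lungs labelled Ahr-KO again had Slc7a5 as the only 1 of the 10 genes called (higher), where 5.95% of the tested genes were called higher and 3.8% lower (9.75% in all). The groups did not overlap for 4 of the 10, against 33% of all tested genes (15.1% higher and 17.9% lower). This comparison differs from normoxia in both genotype and treatment. The 3 lung comparisons share libraries, so their values for 1 gene are not independent.

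**Figure D1:**
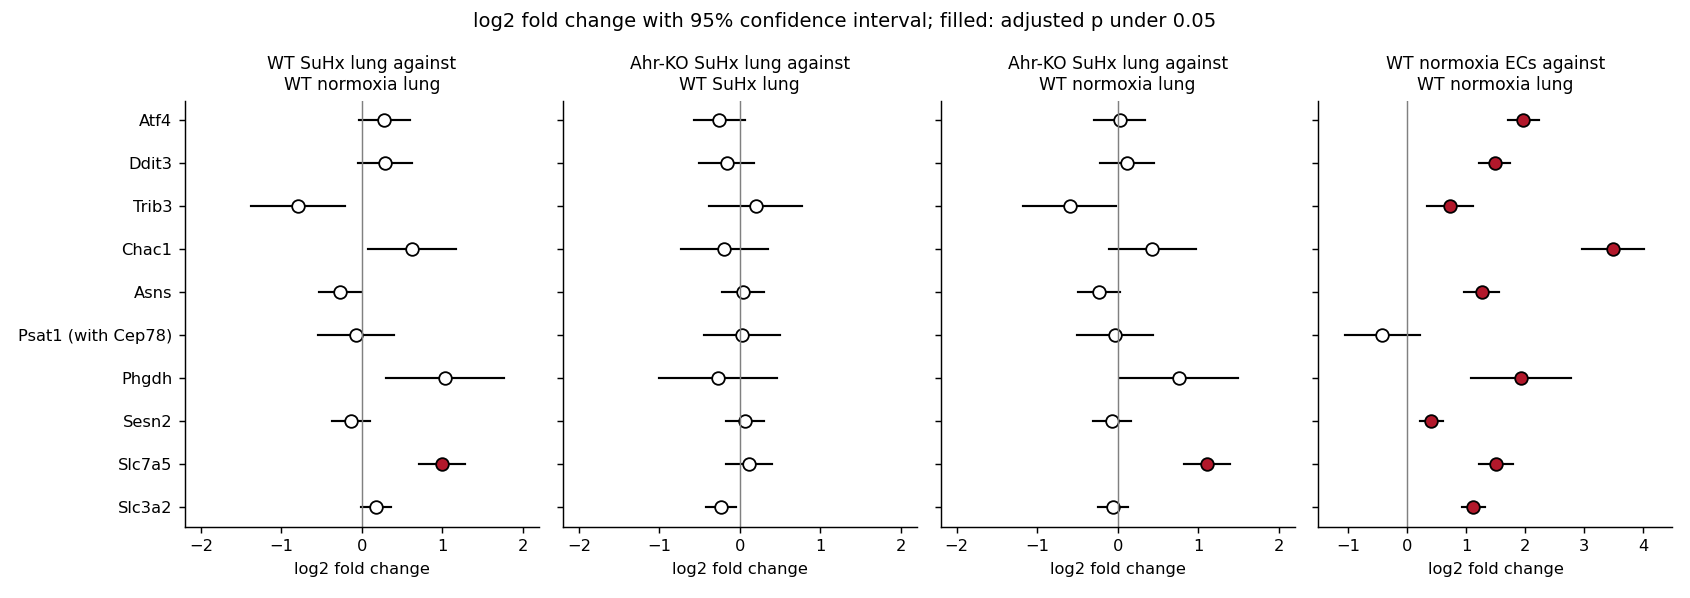
log2 fold change (x axis) of the 10 genes (rows) in the 3 lung comparisons and in ECs against normoxia lung. Circles are limma estimates, lines their 95% confidence intervals, and filled circles have an adjusted p under 0.05. Slc7a5 is the only filled circle in the panels that set SuHx lung against normoxia lung, no circle is filled between the SuHx lungs, and all but the merged Psat1 row are filled for ECs.

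Atf4 mRNA was measured at 4916, 5148 and 6451 in lungs labelled Ahr-KO, at 6384, 5599.7 and 7762 in WT SuHx lungs, and at 5515, 5056 and 5552 in normoxia lungs. The WT SuHx values lay above normoxia by a narrow margin (5599.7 against 5552), and those of the lungs labelled Ahr-KO overlapped both groups. The log2 fold changes were 0.28 ± 0.14 for WT SuHx lung against normoxia (SE; adjusted p = 0.206) and -0.26 ± 0.14 for the lungs labelled Ahr-KO against WT SuHx lung (adjusted p = 0.451, 95% interval -0.57 to 0.06).

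Ddit3, which encodes CHOP, a factor linked to cell death after prolonged stress, was at 388.9, 398 and 440.4 in lungs labelled Ahr-KO, at 432, 398 and 559 in WT SuHx lungs, and at 400.5, 399 and 333 in normoxia lungs. All 3 lung groups overlapped. The log2 fold change of WT SuHx lung against normoxia was 0.28 ± 0.15 (adjusted p = 0.222).

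Trib3 encodes a pseudokinase that binds and restrains ATF4 and CHOP. It was at 119, 146 and 119 in lungs labelled Ahr-KO, at 122, 74.9 and 149 in WT SuHx lungs, and at 158, 208 and 218 in normoxia lungs. All 6 SuHx lungs lay below all 3 normoxia lungs. The log2 fold change against normoxia was -0.79 ± 0.26 in WT SuHx lung (adjusted p = 0.0715) and -0.60 ± 0.26 in lungs labelled Ahr-KO (adjusted p = 0.182), neither of which passed. The WT difference passed in 1 of 19 other settings, with all 12 libraries in 1 fit (adjusted p = 0.0437).

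Chac1 encodes an enzyme that degrades glutathione. It was at 28.6, 34.5 and 31.9 in lungs labelled Ahr-KO, at 35.0, 40.5 and 33.5 in WT SuHx lungs, and at 26.3, 24.7 and 19.2 in normoxia lungs. All SuHx lungs lay above all normoxia lungs, but the signal rests on 25 to 53 reads in each lung library. The log2 fold change against normoxia was 0.62 ± 0.24 in WT SuHx lung (adjusted p = 0.114) and 0.43 ± 0.24 in lungs labelled Ahr-KO (adjusted p = 0.291). Without limma's trend the WT difference passed (adjusted p = 0.0364). Chac1 and Trib3, which share the composite element letters printed above, thus lay on opposite sides of normoxia.

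Asns encodes asparagine synthetase. It was at 574, 553 and 571 in lungs labelled Ahr-KO, at 508, 599 and 552 in WT SuHx lungs, and at 581, 728 and 696 in normoxia lungs. The means were lower in SuHx, with a log2 fold change of -0.27 ± 0.12 in WT SuHx lung (adjusted p = 0.142) and -0.23 ± 0.12 in lungs labelled Ahr-KO (adjusted p = 0.236). Phgdh, the enzyme that opens serine synthesis from a glycolytic intermediate, was at 73.5, 104 and 149 in lungs labelled Ahr-KO, at 109.7, 108 and 168 in WT SuHx lungs, and at 48.5, 52.8 and 88.2 in normoxia lungs. It had the largest spread relative to its mean among the 3 genes of synthesis: within each lung group the suffix 2 library was the highest. The log2 fold change was 1.03 ± 0.33 in WT SuHx lung (adjusted p = 0.0660) and 0.77 ± 0.33 in lungs labelled Ahr-KO (adjusted p = 0.176). The WT difference passed in 4 of 19 other settings, which included leaving out normoxia lung 2 (log2 fold change 1.29, adjusted p = 0.0349). The merged row of Psat1, the aminotransferase that acts after Phgdh, lay between 537 and 931 over all 9 lungs with all groups overlapping (log2 fold change -0.07 ± 0.21 in WT SuHx lung against normoxia, adjusted p = 0.848).

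Sesn2, a leucine sensor upstream of mTORC1, was at 1036 to 1296 in lungs labelled Ahr-KO, 1059 to 1238 in WT SuHx lungs and 1233 to 1272 in normoxia lungs. Its log2 fold change was -0.14 ± 0.11 in WT SuHx lung against normoxia (adjusted p = 0.394).

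Slc7a5 encodes LAT1, the light chain of the exchanger that brings leucine and other large neutral amino acids into the cell. It was at 708, 763 and 635 in lungs labelled Ahr-KO, at 577, 698 and 670.2 in WT SuHx lungs, and at 290.4, 332 and 351 in normoxia lungs. All 6 SuHx lungs lay above all normoxia lungs, and the SuHx groups overlapped each other. The log2 fold change against normoxia was 1.00 ± 0.13 in WT SuHx lung (adjusted p = 0.00150) and 1.11 ± 0.13 in lungs labelled Ahr-KO (adjusted p = 6.79e-04), and Slc7a5 was called in all 19 other settings of both. Between the SuHx groups it was 0.12 ± 0.13 for the lungs labelled Ahr-KO against WT SuHx lung (adjusted p = 0.699, 95% interval -0.17 to 0.40). In that comparison 5 of 5 AhR target genes (Cyp1a1, Cyp1b1, Ahrr, Tiparp and Nqo1) were called lower in lungs labelled Ahr-KO, with a median log2 fold change of -5.81.

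Slc3a2 encodes the heavy chain CD98 (4F2hc), which brings LAT1 and several other light chains to the cell surface. It was at 4328, 4145 and 4049.6 in lungs labelled Ahr-KO, at 5048, 4559.6 and 5137 in WT SuHx lungs, and at 4454, 4262 and 4315 in normoxia lungs. The WT SuHx lungs lay above all other lungs, and the other 2 groups overlapped. The log2 fold change of the lungs labelled Ahr-KO against WT SuHx lung was -0.23 ± 0.08 (unadjusted p = 0.0177, adjusted p = 0.262, limma), and that of WT SuHx lung against normoxia was 0.18 ± 0.08 (adjusted p = 0.172). The heavy chain was thus not called in the 2 comparisons with normoxia lung in which its light chain Slc7a5 was.

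**Figure D2:**
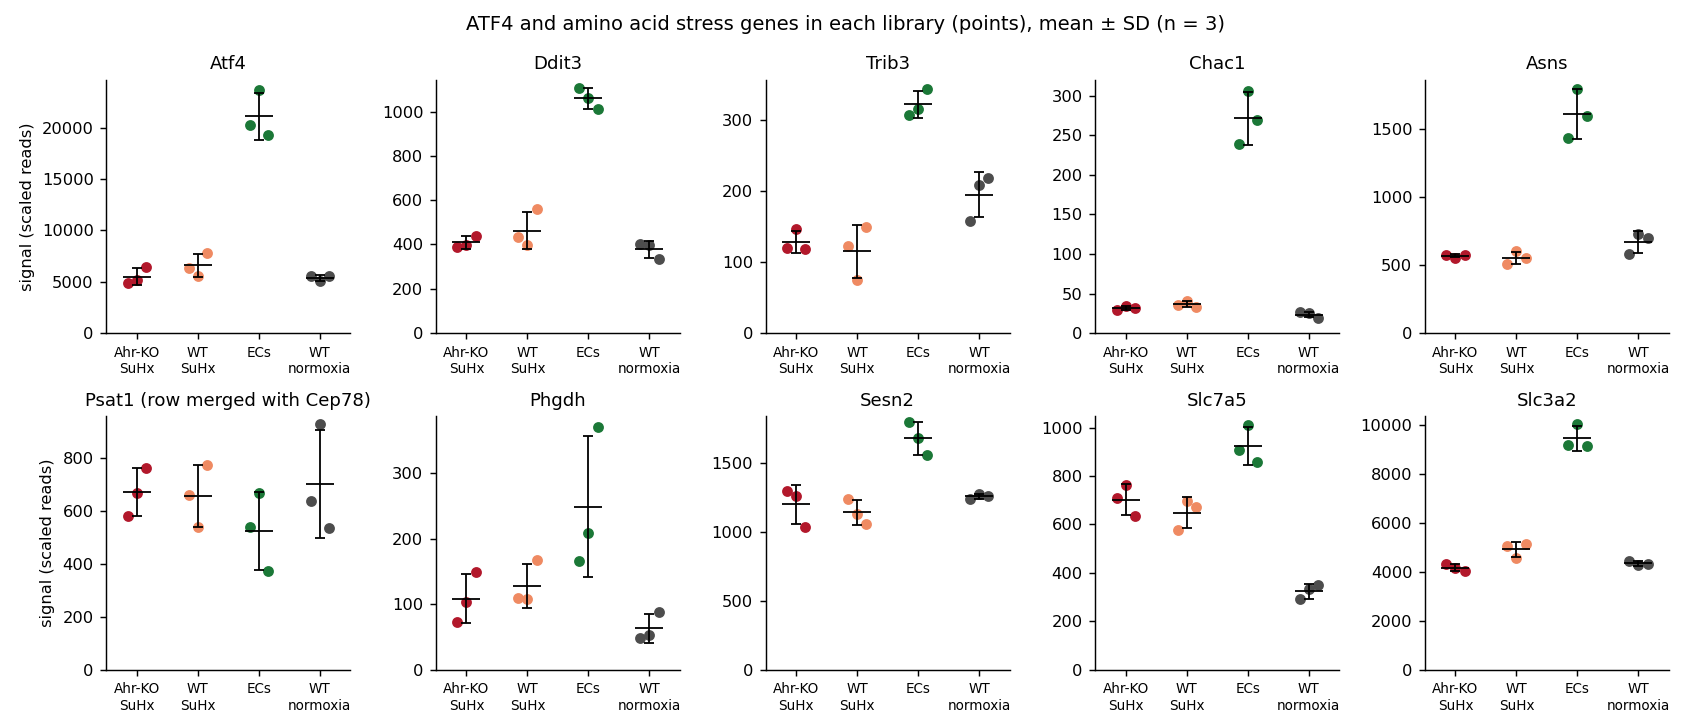
Signal (y axis, scaled reads, from 0) of each of the 10 genes in each of the 12 libraries (points), with the mean ± SD of the 3 libraries of a group (bars). The ECs stand above the normoxia lungs for all but the merged Psat1 row, Slc7a5 is at 577 to 763 in SuHx lungs and 290.4 to 351 in normoxia lungs, and Trib3 is at 74.9 to 149 in SuHx lungs and 158 to 218 in normoxia lungs.

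In ECs, 9 of the 10 genes were higher than in normoxia lung and 0 were lower. Chac1 stood out with 11.2-fold, followed by Atf4 (3.92-fold) and Phgdh (3.80-fold), and the merged Psat1 row was not called. In all, 26.1% of the 15186 genes tested were called higher in ECs and 30.1% lower (56.2% together), so calls were common in this comparison. The 9 genes also had no overlap between the groups, against 65.5% of all tested genes (30.4% higher and 35.1% lower). The median log2 fold change was 1.38 over the 10 genes and -0.05 over all tested. The comparison is of isolated cells with whole tissue, so the isolation and the cell type cannot be told apart.

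Among the regulators, Atf4 was at 20322, 23733 and 19309.5 in ECs, against 5056 to 5552 in normoxia lung (log2 fold change 1.97 ± 0.11, adjusted p = 3.14e-05). Ddit3 was at 1104, 1061 and 1013 in ECs, against 333 to 400.5 in normoxia lung (2.81-fold, adjusted p = 7.11e-05). Trib3 was at 307, 316 and 343 in ECs, against 158 to 218 in normoxia lung (1.67-fold, adjusted p = 0.00764). These 3 regulators were tightly grouped in ECs and lay above every lung library of all 3 lung groups.

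Chac1 was at 239, 306 and 269.6 in ECs, which stood for 210, 254 and 216 reads, against 19.2 to 26.3 (25 to 33 reads) in normoxia lung (log2 fold change 3.49 ± 0.22, adjusted p = 4.20e-05). Its log2 fold change was higher than that of 99.1% of the genes tested. Sesn2, at 1797, 1675 and 1558 in ECs against 1233 to 1272 in normoxia lung, had the smallest called difference of the 9 (1.33-fold, adjusted p = 0.00474).

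Of the synthesis enzymes, Asns was at 1428, 1794 and 1593 in ECs, against 581 to 728 in normoxia lung (2.40-fold, adjusted p = 2.17e-04). Phgdh was at 166, 209.7 and 371 in ECs, against 48.5 to 88.2 in normoxia lung (adjusted p = 0.00333), and its lowest EC value overlapped the SuHx lungs, which reached 168. The merged Psat1 row was at 539, 668 and 374 in ECs, against 537 to 931 in normoxia lung (log2 fold change -0.42 ± 0.27, adjusted p = 0.222). The enzymes for asparagine and for the opening step of serine synthesis were thus higher in ECs, while no difference was detected in the merged row that holds the next step.

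The transporter subunits were both higher in ECs. Slc7a5 was at 905, 1009.8 and 856 in ECs, against 290.4 to 351 in normoxia lung (2.84-fold, adjusted p = 8.92e-05). Slc3a2 was at 9164, 10042 and 9152 in ECs, against 4262 to 4454 in normoxia lung (2.17-fold, adjusted p = 6.71e-05). For Slc7a5 the order of the group means was ECs, lungs labelled Ahr-KO, WT SuHx lung and normoxia lung, and only the SuHx groups overlapped as neighbours in that order.

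The other genes of the pathway were followed in 8 further lists. In WT SuHx lung against normoxia, the chaperones of the endoplasmic reticulum gave the most calls. There, 7.08% of all tested genes were called higher and 6.39% lower. Of 18 genes of the ATF6 and XBP1 branch, the parallel arm of the unfolded protein response that does not run through ATF4, 8 were higher, 1 was lower and 9 were not called (median log2 fold change 0.36). They included the chaperone BiP (Hspa5, 17392 ± 1401 in WT SuHx lung and 10461 ± 1282 in normoxia lung, 1.67-fold), the disulfide isomerase Pdia4 (1.53-fold), Creld2 (1.46-fold) and Sdf2l1 (1.63-fold). The count of 8 was between 3 and 9 in the other settings. The sensor kinase gene Ern1 (IRE1) was the one called lower, and was named after its value was seen. Of 20 cytosolic aminoacyl-tRNA synthetases, which charge tRNAs with amino acids, 4 were higher and 0 lower, with folds of 1.24 to 1.29 for the merged row of Aars, and for Gars, Vars and Yars, and the count was 0 to 7 in the other settings.

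Aldh1l2 and Mthfd2, mitochondrial folate enzymes, and Pycr1, the last enzyme of proline synthesis, were called higher in both SuHx groups. In the serine, glycine and one-carbon list, 2 of the 7 tested genes were higher and 0 lower in WT SuHx lung against normoxia. The shares of all tested genes called were 7.08% higher and 6.39% lower there, and 5.95% and 3.8% in lungs labelled Ahr-KO against normoxia. Aldh1l2 was at 76.6 ± 36.2 in lungs labelled Ahr-KO, 64.2 ± 6.80 in WT SuHx lungs and 13.2 ± 6.68 in normoxia lungs (log2 fold changes against normoxia of 2.49 ± 0.44 and 2.33 ± 0.44, SE), and Mthfd2 was at 309 ± 20.3, 275 ± 35.0 and 134 ± 44.4 in the same groups (2.38-fold and 2.11-fold). Pycr1 was the only 1 of 11 other synthesis enzymes called in WT SuHx lung (2.09-fold), and in lungs labelled Ahr-KO it was 2.43-fold higher while Bcat2 was lower. The sum of 10 smooth muscle and fibroblast markers moved the same way. It was 92726 to 97667 in lungs labelled Ahr-KO, 69821 to 91124 in WT SuHx lungs and 29415 to 47603 in normoxia lungs. In each SuHx group 6 of the 10 markers were called higher and 4 were not called, and none was at 0. Dcn, Col1a2 and Pdgfra had log2 fold changes of -0.60, -0.08 and -0.05 in WT SuHx lung. Erythroid sums were also higher (3445 to 6727 and 4431 to 7398, against 695 to 1258 in normoxia lungs). So were cell cycle sums (12905 to 15808 and 9678 to 11314, against 2388 to 3719). The part of these lists in the values was not tested.

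Of 19 other amino acid transporters, 2 were higher and 1 lower in WT SuHx lung (10.5% and 5.26%). Among all tested genes 7.08% were called higher and 6.39% lower, so the calls in this list were near that share. Slc7a1, a carrier of arginine and lysine, was 1.51-fold and the glutamine carrier Slc38a5 1.64-fold higher, whereas Slc7a8 (LAT2), another light chain of Slc3a2, was 1.55-fold lower (adjusted p = 0.0486), a call kept in 2 of 19 other settings. Of 15 other ATF4 targets and partners, the stress cytokine Gdf15 alone was called (313 ± 23.3 in WT SuHx lung and 128.0 ± 35.3 in normoxia lung, 2.50-fold). Of 14 genes for eIF2 kinases, phosphatase subunits and eIF2B, Eif2s1, the phosphorylated subunit of eIF2, alone was called (1.48-fold higher). No gene was called among the 5 other sestrin, CHAC and Tribbles genes, for example Trib2 (log2 fold change 0.17 ± 0.11) and Sesn3 (-0.35 ± 0.14). In the lungs labelled Ahr-KO against normoxia, 2 of the 18 ATF6 and XBP1 genes and 1 of the 20 synthetases (Wars, 1.37-fold) were higher. Also higher were 2 transporters (Slc7a1 and Slc38a5) and Cebpb (2.14-fold), and the merged row of Shmt1 and the transporter gene Slc7a10 (1.52-fold) were lower. In that comparison 5.95% of all tested genes were called higher and 3.8% lower.

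Between the lungs labelled Ahr-KO and WT SuHx lungs, limma called 0 genes in each of the 8 lists. At an unadjusted p under 0.05 there were 7 of 18 ATF6 and XBP1 genes, 5 of 20 synthetases and 4 of 14 genes of the eIF2 list. The other lists had 3 of 19 transporters, 2 of 15 other targets, 1 of 11 other synthesis enzymes, 0 of 7 one-carbon genes and 0 of 5 relatives. Of all tested genes, 13.6% had such a p. The median log2 fold change was -0.16 for ATF6 and XBP1 genes (4 of 18 above 0) and -0.13 for synthetases (2 of 20). It was -0.05 for the eIF2 list (7 of 14), -0.17 to 0.01 for the other lists and 0.02 over all tested genes. Among the genes with the highest signal, Hsp90b1 was at 13098 ± 874 in lungs labelled Ahr-KO and 17499 ± 1915 in WT SuHx lungs (adjusted p = 0.206), and the calreticulin gene Calr was at 15681 ± 1186 and 19455 ± 1107 in the same groups (adjusted p = 0.295). Of the genes called in WT SuHx lung against normoxia, Gdf15 had a log2 fold change of -1.27 ± 0.27 (adjusted p = 0.0893) between the SuHx groups. Hspa5 had one of -0.58 ± 0.13 (adjusted p = 0.108). The SuHx groups did not overlap for either gene, as for 21.9% of all tested genes. Both were picked here after their values were seen. Their calls rest on the same WT SuHx libraries as this comparison, so the choice itself favours a lower value in lungs labelled Ahr-KO.

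**Figure D3:**
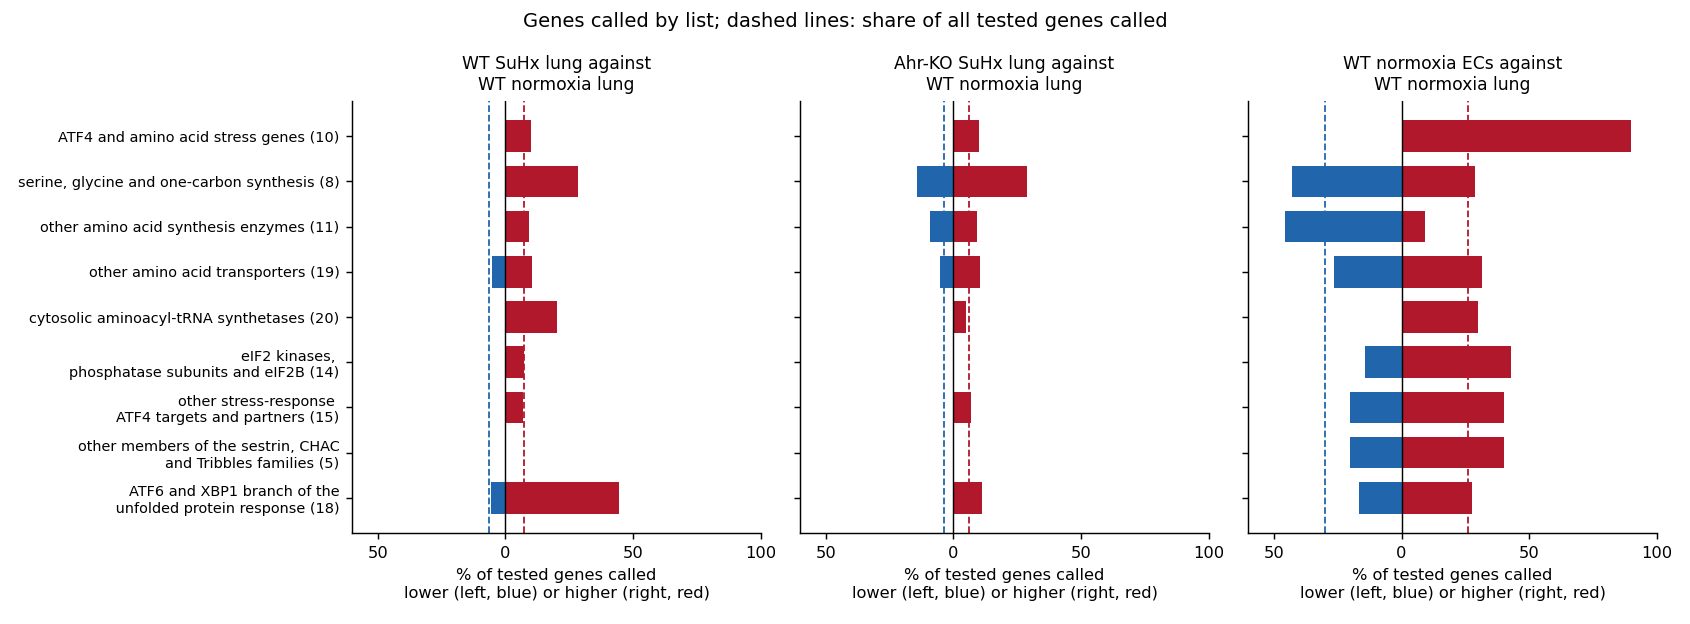
Share of the tested genes of each list that were called higher (right, red) or lower (left, blue), for WT SuHx lung, lungs labelled Ahr-KO and ECs, each against WT normoxia lung. Numbers in brackets are the genes listed, and dashed lines give the share of all tested genes called in each direction. The 10 genes reach 90% higher in ECs and 10% in each SuHx comparison.

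In ECs, 7 of the 8 other lists had calls in both directions, where 26.1% of all tested genes were called higher and 30.1% lower. Ppp1r15a (GADD34), the phosphatase subunit that reverses eIF2 phosphorylation, was at 19503 ± 2808 in ECs and 1129 ± 93.4 in normoxia lung (17.2-fold), and the kinase gene Eif2ak3 (PERK) was 1.62-fold higher. Of the 14 genes of that list 6 were higher and 2 lower. Among the 15 other targets and partners, 6 were higher and 3 lower: Atf3 was at 23380 ± 8923 in ECs and 261 ± 31.8 in normoxia lung (85.3-fold) and Cebpb was 4.19-fold higher, while Atf5 and Vldlr were 2.95-fold and 3.13-fold lower. Trib1 (6.93-fold) and Trib2 (1.63-fold), relatives of Trib3, were higher, and Chac2, the relative of Chac1, was 1.94-fold lower.

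Transport and synthesis genes in ECs went both ways, as did all tested genes (26.1% called higher and 30.1% lower). The shares of transporters called, 31.6% higher and 26.3% lower, lay near these. Of 19 transporters, 6 were higher and 5 lower: the neutral amino acid carrier Slc38a2 was at 22718 ± 1931 in ECs and 4196 ± 1025 in normoxia lung (5.51-fold) and Slc7a1 was 4.00-fold higher, while Slc7a10 was at 20.4 ± 6.23 in ECs and 2309 ± 222 in normoxia lung (110.4-fold lower) and Slc38a5 was 57.2-fold lower. Mthfd2 was 7.59-fold higher in ECs, whereas Aldh1l2 (4.40-fold) and Pycr1 (5.15-fold), which were higher in SuHx lung, were lower in ECs. These 2 folds rest on low signals: Aldh1l2 was at 1.99 ± 0.69 in ECs and 13.2 ± 6.68 in normoxia lung. Pycr1 was at 5.57 ± 0.53 and 33.5 ± 8.93 in the same groups. Of the 7 tested genes of the serine, glycine and one-carbon list, 2 were higher and 3 lower, and of the 11 other synthesis enzymes, 1 was higher and 5 were lower. Of the 20 synthetases, 6 were higher (Mars 1.61-fold, Kars 1.45-fold) and 0 lower on the deposited scale, but 4 and 5 after quantile normalization. The 18 ATF6 and XBP1 genes gave 5 higher, among them Hspa5 (2.08-fold), and 3 lower, but 3 and 8 after quantile normalization. The calls of the 9 genes held in all 15 other settings.

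Over the 9 lung libraries, the genes with the pattern most like each of 4 of the 10 were sought among 12602 rows by Pearson's r of log2(signal + 1). These are descriptions, since the libraries share their groups. Those most like Slc7a5 were Chtf18 (r = 0.99), Mcm5 (0.98) and Mcm4 (0.98), all 3 of them DNA replication genes. Those most like Atf4 were Il12rb2 (0.99), Ppp6c (0.98) and Sf3b5 (0.98). For Chac1 they were Abcb8 (0.95), Mapk11 (0.94) and Il1rl2 (0.94), and for Asns they were Hsdl2, Lad1 and Tbc1d4 (0.92 each). The 10 genes did not follow each other closely in lung: with Atf4, r was 0.81 for Ddit3, 0.75 for Phgdh and 0.66 for Slc3a2, and -0.46 for Asns and -0.79 for Sesn2.

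Cell cycle genes moved with Slc7a5 in lung. The summed signal of 10 cell cycle genes was 12905 to 15808 in lungs labelled Ahr-KO, 9678 to 11314 in WT SuHx lungs and 2388 to 3719 in normoxia lungs, and all 10 were called higher in each SuHx group against normoxia. Within the lungs labelled Ahr-KO, the sums of 15808, 13450.0 and 12905 ran in the same order as Slc7a5 (763, 708 and 635). Within the WT SuHx lungs the library with the highest sum (11314) had the lowest Slc7a5 (577), and in normoxia the library with the highest sum (3719) also had the lowest (290.4). The ECs had sums of 3290 to 3550, within the range of normoxia lung, at a Slc7a5 of 856 to 1009.8. The part of cell cycle genes in the Slc7a5 values was not tested.

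**Figure D4:**
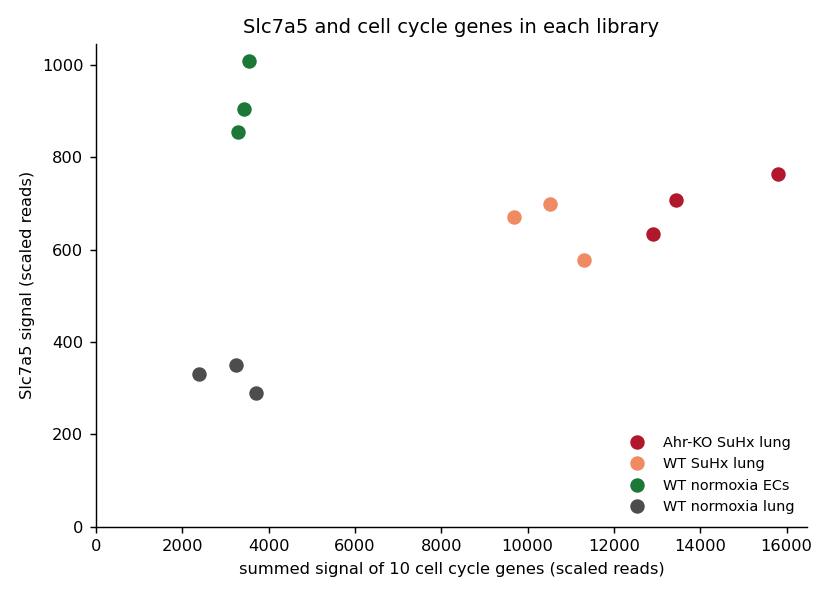
Slc7a5 signal (y axis, scaled reads) against the summed signal of 10 cell cycle genes (x axis, scaled reads) in each of the 12 libraries, coloured by group. The 6 SuHx lungs lie to the upper right of the 3 normoxia lungs, while the 3 ECs have the highest Slc7a5 at sums of 3290 to 3550.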

How the data were processed

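Per the labels' protocols, Trizol and a spin-column kit gave the RNA, and library preparation was by standard Illumina protocols. The submitters' processing notes name rn6 and FastQC. No source used here gives the aligner, counter, normalization or strandedness, so overlapping and related genes may share reads. The deposited unit is a signal, which the authors made by dividing estimated reads by a factor that differs between libraries, as the values show: low values are multiples of 1 step (0.745 to 1.25 signal per read), and 80.9% to 81.8% of values above 0 lie within 0.05 of a whole read. Too few are whole for a count test, so limma was used. Columns gave group and a suffix (0 to 2) that is not the titles' replicate number, so the 12 libraries are named by group and suffix. Nothing states whether replicates are separate animals, so p-values measure the spread between these samples, which may be technical.

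The tests were limma's moderated tests (version 3.58.1, R 4.3.3; two-sided, trended prior variance) of log2(signal + 1) for genes whose mean signal reached 1, and the procedure was tested on simulated data. Fold changes are on that scale and understate changes of low genes. The lung comparisons came from 1 fit of 9 libraries and the EC comparison from a fit of 6. Beside the 10 genes, 16 lists (177 genes, 13 of them in merged rows) were used, of which 8 are of the pathway. All 10 genes are described, and from each list of the pathway at most 4 called genes in order of adjusted p, or, where none was called, the 2 of highest signal. The genes and lists were chosen with earlier results of these data known. Alternatives were limma without trend, quantile or median-of-ratios scaling, dropping the filter or raising it to 5, a pseudocount of 0.1, other sets of libraries in the fit, a block by suffix, and each library left out. Promoter sequences are from RefSeq (GRCr8), another build than rn6, and were matched by symbol.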

Additional observations from a re-analysis of the deposited data

How the results depend on the processing

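The call of Slc7a5 in both SuHx comparisons with normoxia, the calls of 9 genes in ECs, and the absence of calls among the 10 genes between the SuHx groups held in every alternative run. For WT SuHx lung against normoxia, 2 and not 1 of the 10 genes were called in limma without trend (with Chac1). The same count came with all 12 libraries in the fit (with Trib3). It also came with the suffix as a replicate block and without the libraries with much cardiac muscle RNA (both with Phgdh). With 1 library left out the count was 1 to 2. For the lungs labelled Ahr-KO against normoxia, 2 were called with the replicate block (with Phgdh) and 1 with any library left out; the counts with a library left out were 0 between the SuHx groups and 9 in ECs.

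The count over all genes moved more. For WT SuHx lung it was 2052, 3385 with the replicate block, and 862 to 2380 with 1 library left out (over 1.5 times fewer without normoxia 0 or 1, or WT SuHx 0 or 2). Between the SuHx groups it was 76, 47 without trend, 126 with all 12 libraries, and 32 to 100 with 1 library left out (over 1.5 times fewer without normoxia 0, any WT SuHx library, or Ahr-KO 0 or 1). For the lungs labelled Ahr-KO against normoxia it was 1485, and 721 to 1882 with 1 library left out (over 1.5 times fewer without normoxia 0 or 1 or any Ahr-KO library), and for ECs it was 8539, and 7239 to 8069. The suffixes were not taken to pair the samples, since no label says so and same-suffix deviations correlated at -0.04 to 0.21, over 0.1 for 4 of 18 pairs. As a hint from the data, 21 of 36 best matches were with the own suffix, where 12 would be if suffix made no difference. In ECs the merged Psat1 row was called lower with the block (adjusted p = 0.0247). The cause of these moves was not tested.

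Signs changed only for log2 fold changes that were not called. With 1 library left out, the merged Psat1 row spanned -0.10 to 0.16 between the SuHx groups, -0.24 to 0.15 for WT SuHx lung against normoxia and -0.21 to 0.19 for the lungs labelled Ahr-KO against normoxia. Between the SuHx groups Asns spanned -0.022 to 0.096 and Trib3 -0.082 to 0.41, and for the lungs labelled Ahr-KO against normoxia Atf4 spanned -0.094 to 0.10 and Sesn2 -0.13 to 0.027. Without the 2 cardiac libraries, the Psat1 row was -0.063 between the SuHx groups, and for the lungs labelled Ahr-KO against normoxia Atf4 was -0.070, Ddit3 -0.023 and Sesn2 0.030. After quantile normalization Slc3a2 was 0.027 in that comparison. Of the named genes of the other lists, 11 of 16 calls for WT SuHx lung, 8 of 12 for the lungs labelled Ahr-KO and 3 of 31 for ECs were lost in 1 or more alternatives, and none changed sign. For the lists, quantile normalization and leaving out the cardiac libraries were added after the data were seen. Scaling moved the median of all genes by at most 0.06. Chac1 rests on 25 to 53 reads per lung library.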
